A study of Macaca fascicularis with 6 samples.

Results

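GZMK-positive CD8 T cells of the cynomolgus monkey lung were described in single-cell RNA sequencing libraries from 6 animals. A cell counted as a member if it held at least 1 unique molecular identifier (UMI, a tag that marks 1 captured RNA molecule) of at least 2 of CD3D, CD3E, CD3G and TRAC, of CD8A and of GZMK, and none of CD4, CD40LG, FOXP3, MKI67, TOP2A, MS4A1, C1QA or CSF3R. The members were therefore chosen by the measured UMIs of these genes, so that their levels are given below as a description, with no test. By this rule 1738 of 25388 quality-controlled cells (6.85%) were GZMK+ CD8 T cells, 705 of them from control and 1033 from asthma lungs.

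Lung tissue came from 6 male cynomolgus monkeys (Macaca fascicularis) aged 3 to 5 years, 3 in a control group (replicates 1, 2 and 3) and 3 in an asthma group (replicates 8, 10 and 11). The asthma animals were sensitized with injections of Ascaris suum (A. suum) antigen at 1 mg/mL in adjuvant and later given A. suum solution at 10 mg/mL into the nose, whereas the controls received saline at both steps. Lungs were collected in week 11, dissociated with collagenase, papain and DNase, depleted of red blood cells and dead cells, and captured as droplets without sorting for any cell type. Each library is 1 animal and 1 dissociation, so animal, dissociation and library cannot be told apart. The libraries held 40556102, 33210436 and 32240293 UMIs in the controls and 41184329, 41489879 and 29014556 in asthma replicates 8, 10 and 11. They gave 224, 258 and 223 members in the controls and 425, 530 and 78 in asthma, so that asthma replicate 11, with 273653 summed UMIs in its members, is the least precise.

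CD8 T cells recognise peptides on MHC class I and kill target cells with granules that hold perforin and granzymes. GZMK encodes granzyme K, a tryptase-like serine protease, and human and mouse CD8 T cells that express it are often found in inflamed and aging tissues, commonly with the transcription factor EOMES and less of the cytolytic programme than terminal effector cells. In the lung, CD8 T cells circulate through the capillaries and also persist as resident memory cells, which retain CD69 and, in part, the integrin ITGAE.

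The markers named for this cell type were met only in part by the data. CD8A and GZMK were present in every member by the rule, and CD3E was found in 1376 of 1738. KLRG1, an inhibitory receptor of effector and terminally differentiated T cells that the rule did not use, had UMIs in 28.4% of the members, and in 17.2% once each cell was thinned to 2000 UMIs. The same thinned share was 17.3% in GZMK- CD8 T cells (the same rule with no GZMK UMI) and 1.25% in macrophages, which should lack the gene. In asthma replicate 8 the thinned shares lay close, at 6.99% of members and 4.92% of macrophages. Without thinning, 9.96% of all macrophages, which were sequenced more deeply, held a KLRG1 UMI. KLRG1 thus stood above the level in macrophages but did not set the GZMK+ cells apart from the other CD8 T cells, with 121 ± 66.9 CPM (counts scaled to a common total of summed UMIs, mean ± SD over 6 libraries) against 107 ± 63.3 CPM.

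The threshold of 1 GZMK UMI split a continuous range. Among the CD8 T cells, 1770 held no GZMK UMI, 439 held exactly 1 (25.3% of the members), 264 held 2, 508 held 3 to 5 and 527 held 6 or more. The median member held 3 GZMK UMIs, with medians of 4, 2 and 3 in control replicates 1 to 3 and 2, 5 and 3 in asthma replicates 8, 10 and 11. Pooled over the libraries, cells just inside and just outside the threshold had a median of 3695 UMIs and 1428 genes at 1 GZMK UMI and of 3607 UMIs and 1366 genes at none. Single libraries departed from this in both directions, with medians of 4655.5 and 3860 UMIs in control replicate 3 and of 3079 and 3468 UMIs in control replicate 1. At 2000 UMIs per cell, GZMK stayed detected in 82.3% of the members. Every member was chosen by a GZMK UMI, so this share is a description and no test of the threshold. GZMK was detected in 52.8% of thinned NK cells, 10.95% of CD4 T cells, 0.511% of macrophages and 1.25% of B cells (1 of 80 cells).

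The rule also left out cells that resembled the members. Of 2247 cells with the T cell genes, CD8A and GZMK, 509 were dropped because they held an excluded gene, most often MKI67 (187 cells) or TOP2A (114), which mark dividing cells, or CSF3R (135), a neutrophil receptor. A further 371 cells with CD8A and GZMK held only 1 of the 4 T cell genes and were not counted. Between 5 and 13 cell barcodes occurred in both libraries of a pair, and no member's barcode occurred in 2 libraries. The 35133 deposited barcodes gave 25388 cells after the quality filter.

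The share of GZMK+ CD8 T cells varied widely among the asthma lungs. They made up 4.97% of all cells in control replicate 1 (95% exact Clopper-Pearson interval 4.35 to 5.64), 7.35% in replicate 2 (6.51 to 8.26) and 5.48% in replicate 3 (4.80 to 6.23). In asthma replicates 8 and 10 they made up 9.87% (8.997 to 10.8) and 11.2% (10.3 to 12.2), but in replicate 11 only 1.82% (1.44 to 2.27). Asthma replicates 8 and 10 thus lay above every control and replicate 11 below every control, each outside the controls' counting intervals, which cover counting error only. The group means were 5.93% ± 1.25 in control and 7.64% ± 5.08 in asthma (SD, n = 3 each), and an exact permutation test (two-sided, 20 ways to assign the libraries, smallest possible p 0.1) gave p = 0.6. Without asthma replicate 11 the difference was 4.62 percentage points, and without asthma replicate 10 it turned to -0.0858.

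**Figure D1:**
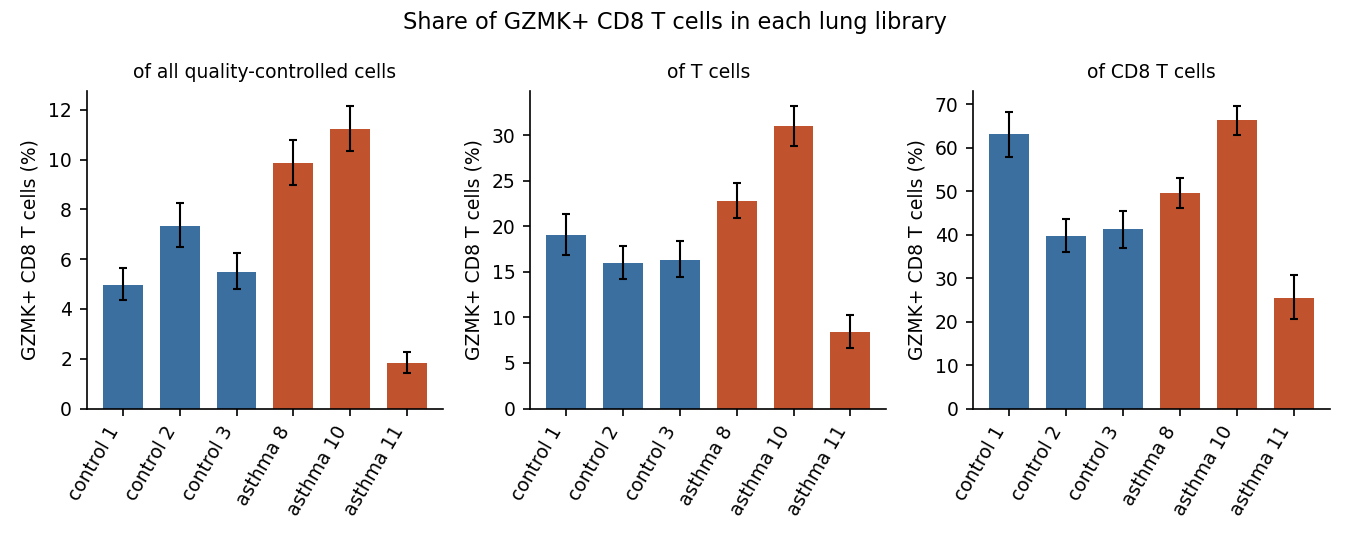
Bars give the percentage of GZMK+ CD8 T cells in each library among all quality-controlled cells, T cells and CD8 T cells (blue, control; red, asthma), with 95% exact binomial intervals. The asthma libraries hold both the highest share of all cells (11.2%) and the lowest (1.82%).

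The asthma lungs also differed from each other with other denominators. Among T cells, the GZMK+ CD8 T cells made up 19.0%, 16.0% and 16.3% in the controls and 22.8%, 31.0% and 8.35% in asthma replicates 8, 10 and 11 (p = 0.7 by the exact permutation test). Among CD8 T cells, 63.1%, 39.7% and 41.2% were GZMK+ in the controls and 49.6%, 66.4% and 25.4% in asthma (p = 1 by the exact permutation test), where asthma replicate 8 lay within the control range. Asthma replicate 11 was the lowest and asthma replicate 10 the highest by all 3 denominators. Once all cells were thinned to 2000 UMIs, the share among CD8 T cells was 39.8% ± 17.5 in control and 41.0% ± 20.2 in asthma.

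The members held high levels of cytotoxic granule genes. GZMB, the caspase-cleaving granzyme B, stood at 7622 ± 1322 CPM, CCL5, a chemokine kept in secretory vesicles of effector T cells, at 4114 ± 958, NKG7, a granule membrane protein, at 2754 ± 452, and GNLY, the pore-forming antimicrobial granulysin, at 2164 ± 896 CPM (n = 6 libraries). GZMA, a tryptase like granzyme K, stood at 986 ± 436 CPM, IFNG, the macrophage-activating interferon, at 688 ± 130, and PRF1, perforin, at 409 ± 91.1 CPM. These values count molecules at the 3′ end and so do not scale with gene length, but capture efficiency differs between genes. The files give no gene the symbol GZMH or KLRC2, so reads from such close relatives could be counted under GZMB and KLRC1, whose values are uncertain to that extent.

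Cell by cell, most members of every library carried NKG7, GZMB and CCL5, and fewer members carried the other RNAs. In members thinned to 2000 UMIs, NKG7 was detected in 97.0%, GZMB in 91.4%, CCL5 in 90.7%, GNLY in 67.4%, PRF1 in 53.3%, IFNG in 50.4% and GZMA in 46.8%; without thinning the shares were 99.0%, 92.9%, 93.5%, 75.3%, 69.6%, 61.2% and 53.4%. In thinned GZMK- CD8 T cells the same shares were 88.6%, 82.7%, 80.3%, 56.1%, 46.1%, 44.4% and 23.4%. In thinned macrophages they were 2.52%, 4.91%, 8.34%, 1.93%, 0.539%, 0.794% and 0.965%. The median depth before thinning was 3638.5 UMIs in members and 16611 in macrophages, and 56 members under 2000 UMIs were left out. GZMA without GZMB was rare, at 0% to 1.37% of members per library, whereas GZMB without GZMA made up 37.9% to 56.2%.

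Memory, activation and residency genes differed in how many members carried them. CD27, a costimulatory receptor lost late in effector differentiation, had UMIs in 39.8% of thinned members, and IL7R, the receptor for the survival cytokine IL-7, in 8.68%. IL7R was found in 0.531% of thinned NK cells, in 0 of 80 B cells, in 8.57% of macrophages and in 41.9% of CD4 T cells. CD69 was detected in 80.3% of thinned members, 77.1% of GZMK- CD8 T cells, 79.3% of CD4 T cells, 78.1% of NK cells and 26.6% of macrophages. Its share thus did not set the members apart from the other lymphocytes of T and NK type. ITGAE, the integrin of epithelial residence, was found in 4.04% against 1.48% in macrophages and 7.50% in B cells. It was thus not above the share in B cells. PDCD1, the inhibitory receptor PD-1, was found in 5.11% against 0.227% in macrophages and 3.75% in B cells. In thinned GZMK- CD8 T cells CD27 was found in 37.6%, IL7R in 14.2%, ITGAE in 5.64% and PDCD1 in 5.45%.

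The cell types differed in GZMK itself. Its level was 1090 ± 466 CPM in the members, 615 ± 329 CPM in NK cells (no T cell gene, at least 3 NK genes), 135 ± 133 CPM in CD4 T cells, and 2.22 ± 5.43 and 2.41 ± 2.44 CPM in B cells and macrophages, which is a description, since GZMK chose the members. The ranges of members and NK cells overlapped, and B cells and macrophages did not differ beyond their spread.

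**Figure D2:**
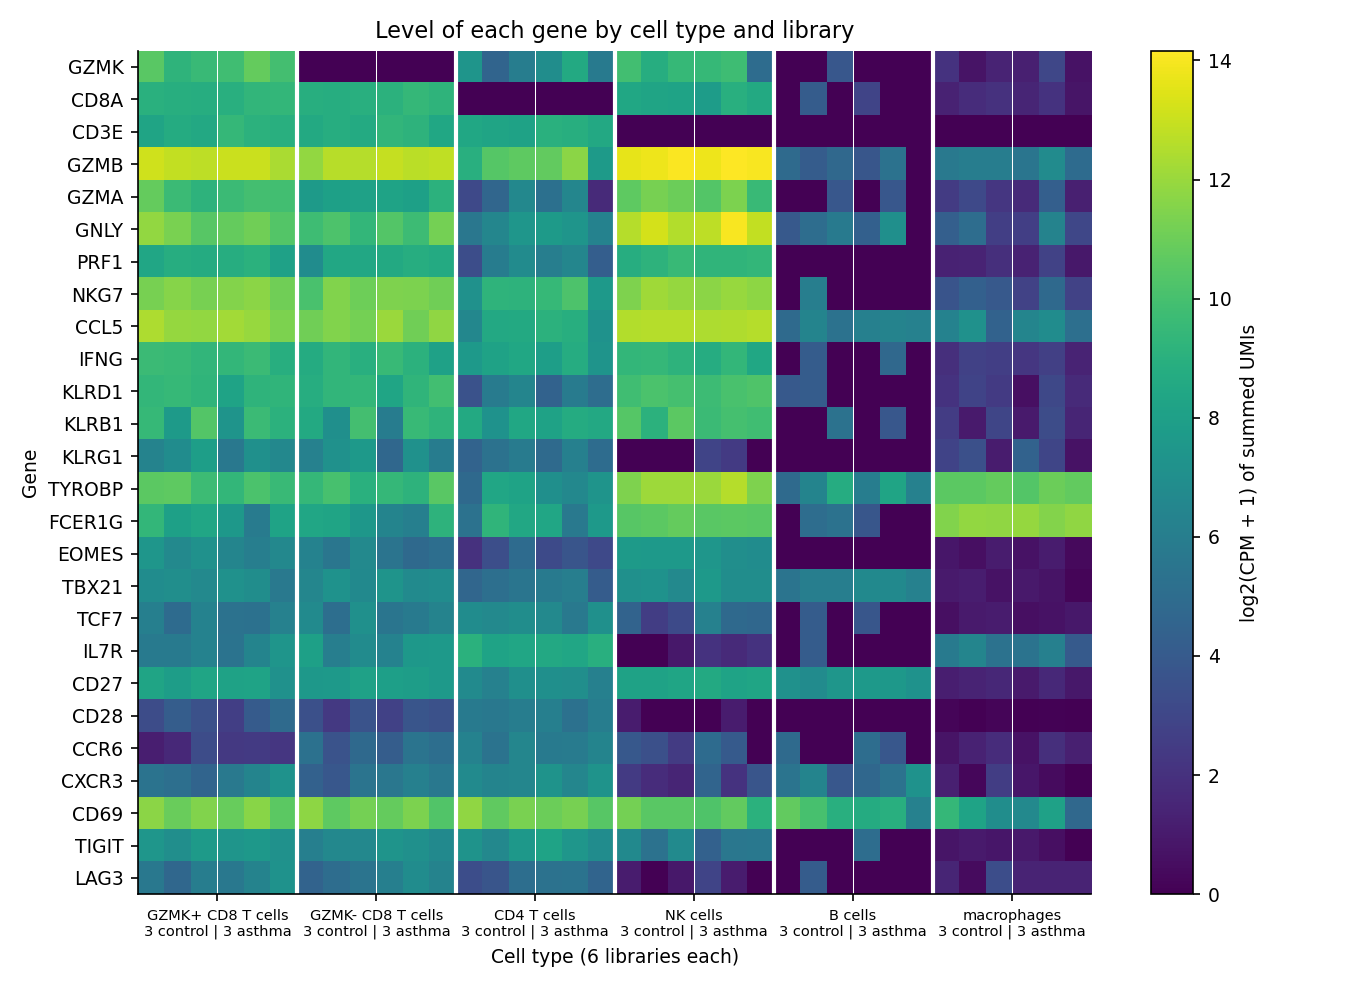
Each row is a gene and each column a library within a cell type, ordered as control replicates 1 to 3 and asthma replicates 8, 10 and 11; colour gives log2(CPM + 1) of summed UMIs. GZMB and CCL5 are high in both GZMK+ CD8 T cells and NK cells, with more GZMB in NK cells. NKG7 is also high in both, but it helped to choose the NK cells, and CD3E is at 0 in NK cells by their rule.

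The comparison of GZMK+ with GZMK- CD8 T cells asks what accompanies GZMK within 1 lineage. The GZMK- cells were chosen by the absence of a UMI, so they may include cells whose GZMK RNA was not captured. Summed counts of the 2 types from the same 6 libraries were compared with the library as a block, and a gene was called where its adjusted p was below 0.05 and its log2 fold change exceeded 0.25 in size. From here on, CPM in tested comparisons are scaled by edgeR's TMM factors. GZMA and EOMES were higher in the GZMK+ cells, and JAML, CCR6, ITLN1 and MSLN were lower. These were 2 higher calls among 7512 genes tested (0.0266%) and 4 lower calls (0.0532%), in edgeR (quasi-likelihood, Benjamini-Hochberg).

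GZMA stood in the GZMK+ cells at 1926, 817 and 582 CPM in control replicates 1 to 3 and at 758, 1015 and 954 CPM in asthma replicates 8, 10 and 11. The GZMK- cells of the same libraries held 234, 269, 277, 281, 270 and 560 CPM of GZMA. By this level every library was higher in its GZMK+ cells, and the GZMK+ range lay wholly above the GZMK- range. The thinned share of cells with a GZMA UMI was lower in the GZMK+ cells of asthma replicate 11 (24.7% against 27.0%). That share was higher in the GZMK+ cells of every other library. The log2 fold change of GZMA was 1.61 ± 0.21 (SE; adjusted p = 0.00542 in edgeR (quasi-likelihood, Benjamini-Hochberg)).

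EOMES, a T-box transcription factor of effector and memory CD8 T cells, stood at 182, 105 and 142 CPM in the GZMK+ cells of the controls and at 81.4, 67.7 and 98.4 CPM in those of asthma. In the GZMK- cells it stood at 85.4, 47.2, 98.3, 40.9, 28.3 and 34.6 CPM in the same order. It was higher in 6 of 6 libraries, although the ranges over libraries overlapped, with a log2 fold change of 1.01 ± 0.11 (adjusted p = 0.00175 in edgeR (quasi-likelihood, Benjamini-Hochberg)). TBX21, which encodes the related T-bet, stood at 111 ± 30.7 CPM in GZMK+ and 123 ± 22.6 CPM in GZMK- cells and was not called.

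CCR6, the receptor for CCL20 that guides type 17 and mucosal lymphocytes, was nearly missing from the GZMK+ cells, with 1, 3 and 10 UMIs in the controls and 7, 8 and 1 UMIs in asthma. The GZMK- cells of the same libraries held 19, 22, 36, 27, 38 and 29 CCR6 UMIs. It was lower in 6 of 6 libraries, by 2.64 ± 0.31 on the log2 scale (adjusted p = 0.00227 in edgeR (quasi-likelihood, Benjamini-Hochberg)). JAML, an adhesion molecule that binds an epithelial junction protein and that was listed among residency genes, stood at 8.05, 5.15 and 14.9 CPM in the GZMK+ cells of the controls and at 13.2, 27.5 and 22.7 CPM in those of asthma. In the GZMK- cells JAML stood at 29.2, 14.3, 34.8, 43.9, 97.8 and 38.2 CPM. JAML fell by 1.58 on the log2 scale in the GZMK+ cells, also in 6 of 6 libraries.

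ITLN1 and MSLN mark mesothelial cells, and most of the ITLN1 UMIs lay in very few cells. Of 8582 ITLN1 UMIs in the GZMK- cells, 96.5% lay in 13 cells with at least 10 ITLN1 UMIs, whose median depth was 12570 UMIs, and of 1671 in the GZMK+ cells 77.6% lay in 3 such cells. The thinned shares of cells with an ITLN1 UMI were 11.4% in GZMK+, 9.80% in GZMK- cells and 6.75% in macrophages. ITLN1 was not called among cells of 2000 to 6000 UMIs (log2 fold change -0.33), nor after cells with at least 2 markers of another lineage were left out (-0.09). MSLN was lower in 5 of 6 libraries, was not tested in either of these alternatives, and is named only because it passed, after its values were seen.

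**Figure D3:**
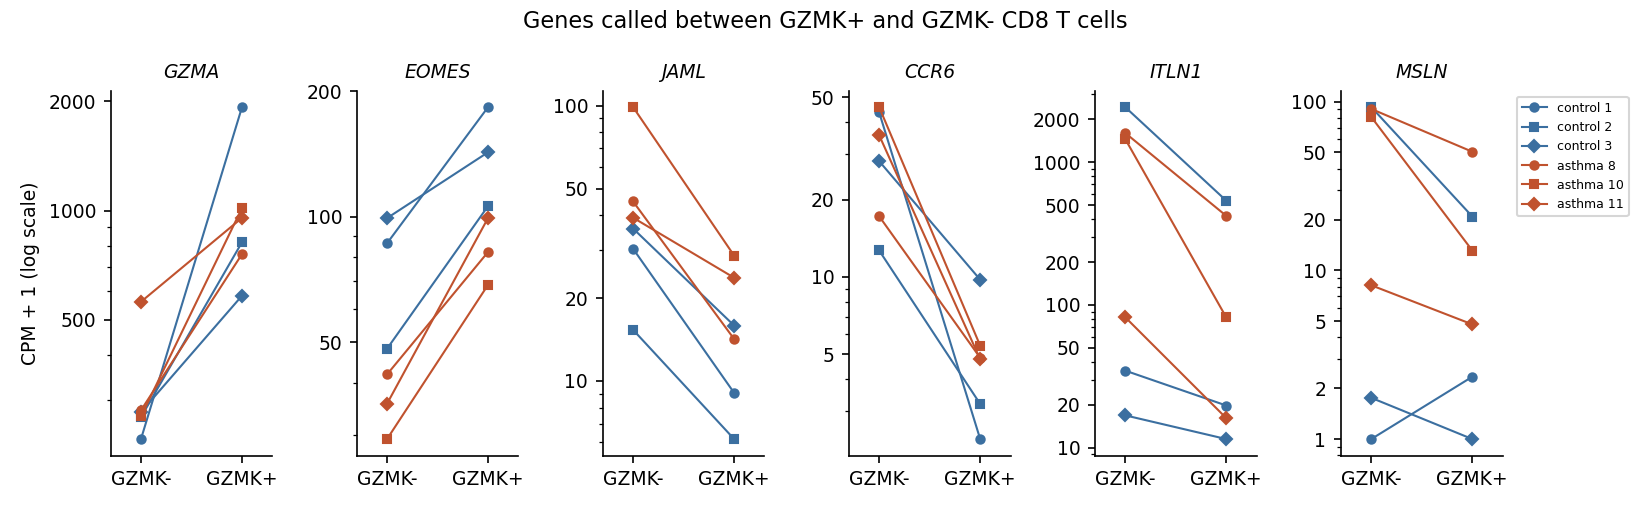
CPM + 1 on a log axis in the GZMK- and GZMK+ CD8 T cells of each library for the 6 called genes; a line joins the 2 types of 1 library (blue, control; red, asthma). GZMA and EOMES rise and JAML, CCR6 and ITLN1 fall in 6 of 6 libraries, and MSLN falls in 5.

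More genes passed in 2 narrower sets of cells. Among cells of 2000 to 6000 UMIs 24 genes were called, and without cells holding other lineages' markers 18, with 12 in both. Those 12 were higher for GZMA, EOMES, GNLY, CCL5, PVRIG, LYAR and an identifier with no symbol, and lower for JAML, IL7R, TNFSF10, CAPG and SAMSN1. PVRIG encodes an inhibitory receptor of the TIGIT family, TNFSF10 the death ligand TRAIL, and CAPG an actin-capping protein. PVRIG had a log2 fold change of 0.85 among cells of 2000 to 6000 UMIs, GNLY of 0.84 and IL7R of -0.94, against 0.81, 0.89 and -0.88 in the whole comparison, where none of the 3 was called. CCR6 fell under the count filter in both subsets and was not tested there.

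Few genes of the lists drawn up for description were called between the 2 types. Of 10 tested granule genes 1 was higher (GZMA) and none lower, although all 10 had a fitted change above 0, with a median log2 fold change of 0.28, beside a median of -0.0046 over all genes tested. Of 26 tested transcription factors 1 was higher (EOMES), of 9 residency genes 1 was lower (JAML), and of 4 type 2 and type 17 genes 1 was lower (CCR6). None of 11 killer receptors, 12 cytokines, 15 homing genes, 5 inhibitory receptors, 13 costimulatory and memory genes, 17 T cell receptor signalling genes or 20 immediate early genes was called. TCF7, a factor of stem-like memory, had a log2 fold change of -0.47 and was lower in 6 of 6 libraries without being called, and TIGIT, an inhibitory receptor, had 0.58 and was higher in 6 of 6 without being called.

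In plain CPM of summed UMIs, members with 1 GZMK UMI had a median CCR6 level near that of the other members, while for GZMA the libraries differed. The median over libraries of GZMA was 272 CPM in CD8 T cells with no GZMK UMI, 685 CPM at 1, 810 CPM at 2, 837 CPM at 3 to 5 and 919 CPM at 6 or more. EOMES ran through 44.8, 81.8, 108, 95.8 and 138 CPM over the same classes, and CCR6 through 30.6, 2.09, 3.39, 1.98 and 1.97 CPM. At 1 GZMK UMI, CCR6 rested on 5 UMIs in 439 cells, with none in control replicate 1 and asthma replicates 8 and 10. These cells were also part of the comparison that called CCR6, so its drop is a description and no separate test. PVRIG held at 37.5 to 53.9 CPM up to 3 to 5 GZMK UMIs and reached 96.6 CPM at 6 or more. In control replicate 3 GZMA stood at 279 CPM with no GZMK UMI, 335 CPM at 1 and 400 CPM at 2, and in asthma replicate 10 at 260, 429 and 886 CPM. In asthma replicate 8 the same classes stood at 297, 536 and 936 CPM. In these 3 libraries the cells with 1 GZMK UMI lay nearer to those with none than to any class with 2 or more. In asthma replicate 11, with 78 members in all, GZMA was highest at 1 GZMK UMI (1685 CPM) and lowest among its members at 6 or more (307 CPM).

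**Figure D4:**
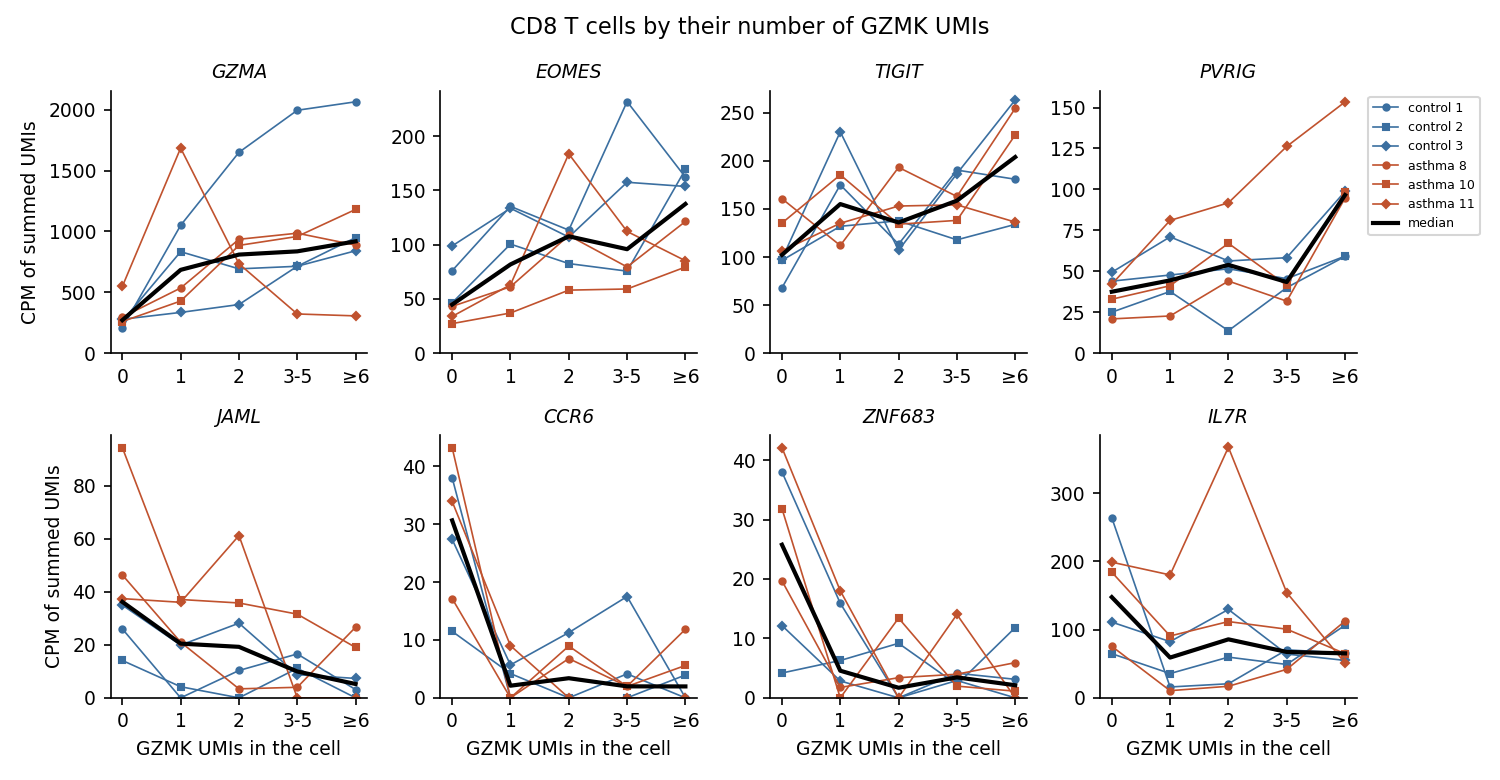
Level in CPM of 8 genes in CD8 T cells grouped by their number of GZMK UMIs (0, 1, 2, 3 to 5, 6 or more), for each library (blue, control; red, asthma) and as the median over libraries (black). CCR6 drops from a median of 30.6 CPM at 0 to 2.09 CPM at 1 GZMK UMI, whereas GZMA goes from 272 to 685 CPM.

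Against CD4 T cells (955 T cells with CD4 or CD40LG and none of CD8A, CD8B, FOXP3 or the other excluded genes), the members showed a cytotoxic profile. In edgeR (quasi-likelihood test, Benjamini-Hochberg), 364 of 6356 genes were higher in the GZMK+ CD8 T cells (5.73%) and 532 lower (8.37%). Of 10 tested granule genes 9 were higher and none lower, with a median log2 fold change of 2.39, and of 8 killer receptors 7 were higher, with a median of 2.40, beside a median of 0.0072 over all genes tested. GZMA was higher by 4.59, GNLY by 3.98, PRF1 by 2.84 and GZMB by 2.68 on the log2 scale. The receptors KLRC1 and KLRD1, which form an HLA-E receptor with each other, were higher by 4.25 and 3.70, and KLRG1 by 1.39.

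GNLY may serve as an example by library. It stood in the members at 3865, 2532 and 1388 CPM in the controls and at 1628, 2235 and 1358 CPM in asthma, and in the CD4 T cells at 57.3, 99.1, 181, 213, 174 and 80.7 CPM. The lowest member value was thus far above the highest CD4 T cell value. CCL5 was higher by 3.64, EOMES by 3.16, OPLAH, an enzyme of glutathione turnover, by 3.82, and PDGFRB, best known as a growth factor receptor of pericytes, by 3.11 at 36.8 ± 9.92 against 4.18 ± 2.67 CPM.

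Single genes of the CD4 T cells were far lower in the members. LEF1, a factor of naive and memory cells, had 1, 1 and 2 UMIs in the members of the controls and 2, 2 and 2 in those of asthma, against 35.4 to 96.7 CPM in CD4 T cells, a fitted log2 fold change of -5.32. TNFRSF4, the costimulatory receptor OX40, had 2 UMIs in all members, and the CD4 T cells held 19.9 to 62.8 CPM. CTLA4, an inhibitory receptor of activated and regulatory T cells, had a log2 fold change of -4.48, the IL-6 receptor gene IL6R -3.52, CCR6 -3.96, ICOS -2.62, IL7R -2.50 and CD28 -2.20. Of 14 tested costimulatory and memory genes 8 were lower and 2 higher, namely CD27 and IL2RB. GIPC2, CR1 and SUSD3 were also among the 8 called genes with the largest differences downward.

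Against NK cells (1124 cells), the members were higher in KLRG1, IL7R and several inhibitory receptors and lower in FCER1G and TYROBP. In edgeR (quasi-likelihood test, Benjamini-Hochberg), 290 of 6727 genes were higher in the GZMK+ CD8 T cells (4.31%) and 262 lower (3.89%). NKG7, GNLY, KLRD1, PRF1, NCAM1, NCR1 and KLRF1 chose the NK cells and are left out of this comparison. KLRG1 was at 85.7, 122 and 246 CPM in the members of the controls and at 48.0, 142 and 99.3 CPM in those of asthma, and the NK cells held 0, 0, 0, 2, 4 and 0 UMIs of it. IL7R had 0, 0, 1, 1, 2 and 1 UMIs in the NK cells, and LAG3, an inhibitory receptor, 1, 0, 1, 2, 1 and 0. The members stood above the NK cells for all 3 genes in 6 of 6 libraries, with fitted log2 fold changes of 6.39, 5.76 and 5.55.

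Further genes higher in the members than in NK cells were SIT1 and CD6, adaptors and modulators of the T cell receptor, by 5.53 and 4.30 on the log2 scale, PDCD1 by 3.92, ADAM23 by 3.49, DPP4 by 3.31 and the chemokine receptor gene CXCR3 by 3.26. Of 20 tested immediate early genes, which respond to stimulation within minutes, 13 were higher and none lower, with a median of 0.52, beside -0.00073 over all genes tested; DUSP2 (2.16), RGS1 (1.80) and FOS (0.99) were among them. Of 6 tested inhibitory receptors 4 were higher and CD300A was lower. Of 16 tested T cell receptor signalling genes 7 were higher and 4 lower, with a median of 0.13.

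FCER1G and TYROBP, adaptors of innate receptors, were lower in the members. FCER1G stood at 702, 273 and 336 CPM in the members of the controls and at 179, 60.1 and 309 CPM in those of asthma, against 1426 to 1805 CPM in NK cells, and had a log2 fold change of -2.64. The log2 fold change was -2.61 for SH2D1B, -2.42 for SYK, a kinase that binds such adaptors, -2.23 for CD7 and -1.92 for TYROBP. GZMB fell by 1.03 and GZMA by 0.89 from NK cells, although GZMA was higher in the members of 2 libraries, and EOMES fell by 0.66. The NK cells were chosen in part by the granule genes NKG7, GNLY and PRF1, and the members were not. What this choice adds to the lower granule genes was not tested. DPEP1, ALKAL2, OPLAH and CXXC5 completed the 8 largest called differences downward.

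Even so, a large part of the members held an innate adaptor. At 2000 UMIs per cell, TYROBP or FCER1G was detected in 48.1%, 76.2% and 39.4% of the members in control replicates 1 to 3 and in 34.0%, 44.1% and 31.5% in asthma replicates 8, 10 and 11. Control replicate 2 was highest, and the groups overlapped. Macrophages express both genes strongly, with TYROBP in 92.9% and FCER1G in 96.8% of thinned cells, and the part of free RNA in these shares was not tested. TYROBP alone was found in 43.2% of the members, 38.0% of GZMK- CD8 T cells, 10.7% of CD4 T cells and 13.8% of B cells. FCER1G was found in 16.9%, 16.1%, 8.68% and 2.5% of the same types.

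The comparison of asthma with control within the members asks which genes changed with A. suum exposure. Of 7606 genes tested, 1 was called (0.0131%), and 343 had an unadjusted p under 0.05, in edgeR (quasi-likelihood, Benjamini-Hochberg). The called gene, ENSMFAG00000035374, has no symbol in the files. It stood at 806, 575 and 774 CPM in the controls and at 234, 168 and 223 CPM in asthma, so that every asthma library lay below every control. Its log2 fold change was -1.79 ± 0.21 (adjusted p = 0.0446 in edgeR (quasi-likelihood, Benjamini-Hochberg)), and the call was lost when any library other than control replicate 2 was left out.

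The genes with a symbol and the smallest p values did not pass in the edgeR comparison. PLAC8, a small cysteine-rich protein of immune cells, stood at 328, 165 and 155 CPM in the controls and at 61.0, 58.2 and 64.2 CPM in asthma, with a log2 fold change of -1.82 ± 0.29. PLAC8 was called with DESeq2 and with at least 2 GZMK UMIs. RARRES1, a retinoic acid responder, stood at 8.06, 4.44 and 7.002 CPM in the controls and at 23.6, 33.3 and 22.6 CPM in asthma, with 2.12 ± 0.34. Both had an adjusted p of 0.282 in edgeR (quasi-likelihood, Benjamini-Hochberg), and in both the groups did not overlap. Next among the lower values were CMA1 (-0.94), SYK (-2.01), CD38 (-1.54) and JADE2 (-0.91), and among the higher ones LST1 (1.11), PTGR1 (2.29) and SIT1 (0.94). Of the genes named here, all but PTGR1 had groups that did not overlap. With no filter on low counts all of them but JADE2 were called.

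**Figure D5:**
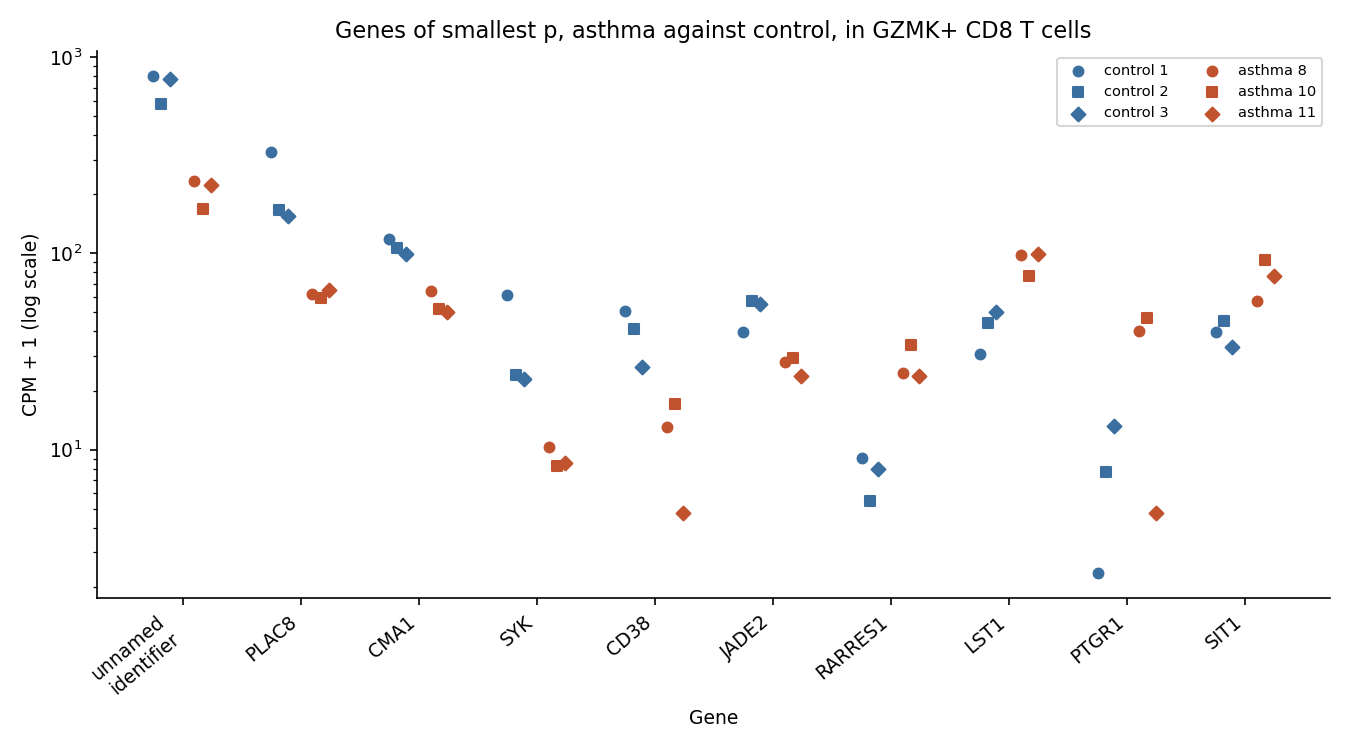
CPM + 1 on a log axis in the GZMK+ CD8 T cells of each library (blue, control; red, asthma; symbols mark replicates), for the called gene without a symbol and the genes named above as having the smallest p values. The called gene, ENSMFAG00000035374, lies at 575 to 806 CPM in control and 168 to 234 in asthma, and PTGR1 is the gene whose groups overlap.

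The cytotoxic genes showed no called difference. GZMB stood at 8088 ± 1194 CPM in the control members and 7398 ± 1710 in the asthma members (n = 3 each), GNLY at 2650 ± 1266 and 1781 ± 471, CCL5 at 4571 ± 1121 and 3789 ± 894, GZMA at 1111 ± 718 and 910 ± 137, and IFNG at 757 ± 106 and 644 ± 178 CPM. The groups overlapped for all 5 genes, and each difference was within the spread of the libraries. The median log2 fold change was -0.10 over 10 granule genes, -0.46 over 11 killer receptors, 0.31 over 6 inhibitory receptors and 0.13 over 12 cytokines, beside 0.0018 over all genes tested, and none of these genes was called.

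Several homing and effector genes had groups that did not overlap, without passing the test. Over all genes tested, every asthma library lay above every control library in 4.9% and below in 5.39%. Among 15 homing genes 6 lay above and none below, among them CXCR3 and CXCR6, which are chemokine receptors of effector cells at inflamed sites, the integrins ITGA1 and ITGB1, and CD44, which binds hyaluronan. CXCR3 stood at 43.0, 36.3 and 22.8 CPM in the controls and at 47.8, 86.5 and 155 CPM in asthma. Its highest value, in asthma replicate 11, came from 78 cells. At 2000 UMIs per cell the shares of members with a CXCR3 UMI overlapped between the groups (8.33%, 6.64% and 5.56% against 8.19%, 13.4% and 27.4%). In GZMK- CD8 T cells the CXCR3 shares did not overlap (4.72%, 2.47% and 6.34% against 7.65%, 10% and 8.37%), and in CD4 T cells they did. Among 12 cytokines 3 lay above, namely TNF, LTB and TNFSF10. Among 17 T cell receptor signalling genes 2 lay above and 3 below, and among 20 interferon genes 2 above and 1 below. Among 8 innate-like genes DPP4 and LST1 lay above, and among 8 residency genes 2 above, ITGA1 and CXCR6 again. For DPP4 too, the thinned shares of members with a UMI overlapped (1.39%, 3.13% and 5.09% in control, 3.13%, 8.10% and 13.7% in asthma). In GZMK- CD8 T cells and in CD4 T cells every asthma library had a higher DPP4 share than every control, and in NK cells the groups overlapped. Among 26 transcription factors EOMES and RUNX3 lay below.

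EOMES in the members of asthma lungs had a log2 fold change of -0.84 against control without being called. This lower EOMES was not particular to the members. In plain CPM the GZMK- CD8 T cells held 76.0, 46.5 and 98.8 in control and 43.2, 27.3 and 33.9 in asthma. The NK cells held 212, 193 and 195 CPM of EOMES in control and 171, 129 and 116 CPM in asthma. In CD4 T cells the groups overlapped for EOMES. At 2000 UMIs per cell it was detected in 25.9%, 17.2% and 20.8% of the members in the controls and in 15.9%, 10.3% and 16.4% in asthma, and without thinning in 27.2% of all members. CD69 was detected in 90.7%, 84.0% and 82.9% in the controls and 72.0%, 80.6% and 72.6% in asthma, and KLRD1 in 61.1%, 64.1% and 58.3% against 35.4%, 52.4% and 39.7%. Without thinning CD69 had UMIs in 87.1% and KLRD1 in 63.7% of all members, and thinned macrophages held EOMES in 0.284% and KLRD1 in 0.653% of cells. For each of the 3 genes every asthma share lay below every control share. PDCD1 lay above, with 3.24%, 2.73% and 4.63% in the controls and 7.23%, 5.34% and 6.85% in asthma, as did ITGAE (3.31% and 4.41% as group means) and CD3E (50.03% and 64.8%), which the rule used. These were 6 of a chosen list of 29 genes examined cell by cell, and the share of all genes whose groups separate by this measure was not computed, so nothing is read from the count. Separation of 3 against 3 libraries cannot give a two-sided exact permutation p under 0.1. The summed levels of CD69, KLRD1, PDCD1 and ITGAE overlapped between the groups, and without thinning so did the shares of PDCD1, ITGAE and CD3E.

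Whether the asthma effect differed between GZMK+ and GZMK- CD8 T cells was tested as an interaction. Of 8262 genes tested none was called (0%), by edgeR (quasi-likelihood test, Benjamini-Hochberg) or by DESeq2, and 298 had an unadjusted p under 0.05 in edgeR. The smallest p values belonged to an identifier with no symbol, to CD14, a monocyte receptor, and to GSTA5, KRT5 and KRT15, which airway epithelial cells express. KRT5 rested on 46 UMIs in the members of control replicate 3 and 42 in those of asthma replicate 8, with none in the members of the other 4 libraries.

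RNA of other lung cell types was present in the members and varied among libraries. All 8 listed epithelial genes were detected, with a summed level of 2544, 1772 and 2950 CPM in the controls and 150, 6712 and 698 CPM in asthma replicates 8, 10 and 11; SFTPC, the surfactant protein of alveolar type 2 cells, was the most abundant. All 8 macrophage genes were detected, led by APOE, at 306, 242 and 395 CPM in the controls and 989, 289 and 344 CPM in asthma. Of 8 stromal and endothelial genes 7 were detected, led by DCN, at 25.5, 1730 and 735 CPM in the controls and 613, 102 and 267 CPM in asthma, and CLDN5 had no UMI, which allows up to 0.418 CPM over all members. All 7 B and plasma cell genes summed to 17.8 to 192 CPM, and the defining genes MS4A1, C1QA and CSF3R were at 0 by the rule. None of these 4 lists separated the groups. The 6 detected NK cell genes, led by TYROBP, summed to 2216, 1965 and 1214 CPM in the controls and 908, 1210 and 1115 CPM in asthma, so that every asthma library lay below every control, the nearest by 1214 against 1210 CPM. The part of these lists in the asthma comparison was not tested.

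Possible doublets were counted by 2 measures. Of the members, 94 (5.41%) were among the cells with the highest Scrublet scores and 367 (21.1%) held at least 2 markers of another lineage. Without the cells of highest Scrublet scores, which left out GZMK- cells as well, the comparison of GZMK+ with GZMK- cells called 9 genes, which included all 6 of those above, and the asthma comparison called 1.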

How the data were processed

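Droplet 3′ single-cell RNA sequencing was done on 6 lungs. The authors deposited UMI counts per gene and barcode for each library, not normalized, aligned to macFas6 with Cell Ranger (version 2.1.1 in the submitters' processing notes, 4.0.0 in the file headers). Library totals were 29014556 to 41489879 UMIs. Cells with 501 to 4999 genes and at most 25% mitochondrial UMIs were kept. Members and gene lists were chosen with earlier results of these data known. UMIs were summed per library and cell type (273653 to 1867423 for members) and tested with edgeR 4.0.16 (TMM, filterByExpr, quasi-likelihood, Benjamini-Hochberg adjustment); standard errors derive from the F statistic. GZMK+ cells against other types had the library as a block. Named genes were the called genes with a symbol of largest fold change in the same direction in all libraries, up to 15 (GZMK-) or 8 (CD4, NK) each way, the 5 of smallest p each way for asthma, where fewer than 10 were called, the 5 of smallest p for the interaction, and listed genes. Some genes that the rule names are not reported here. Shares were compared by exact permutation. Of 28623 identifiers, 7528 have no symbol and 4279 share theirs with another identifier. A symbol stood for a gene only where a single identifier carried it, and 37 of 321 listed genes had no such symbol. The edgeR fits were tested on simulated data. No replicate number is shared between the groups. Alternatives were DESeq2 1.42.0, RLE size factors, no count filter, stricter cells and each library left out.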

Additional observations from a re-analysis of the deposited data

How the results depend on the processing

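Asthma and control libraries could not be paired because control replicates 1, 2 and 3 and asthma replicates 8, 10 and 11 share no number. The difference in share (asthma minus control, in percentage points) ran, with each library left out, from -0.0858 to 4.62 among all cells, from -1.53 to 9.78 among T cells and from -10.5 to 10.0 among CD8 T cells, where it was -0.865 with all libraries. Among CD8 T cells it was 6.68 without control replicate 1, 10.0 without asthma replicate 11, 0.238 with at least 2 GZMK UMIs and 1.23 after thinning.

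Counts of called genes also moved. Asthma against control went from 1 to 2 with at least 2 GZMK UMIs or DESeq2, to 128 with no filter on low counts, and to 0 to 2 with each library left out. GZMK+ against GZMK- went from 6 to 21 with at least 2 GZMK UMIs, 18 without cells with other lineages' markers, 24 at 2000 to 6000 UMIs, 14 with DESeq2, 207 with no filter, and 6 to 16 with each library left out (16 without asthma replicate 11, 10 without asthma replicate 8). The CD4 T cell comparison went from 896 to 516 with DESeq2, 1299 with no filter, and 698 to 820 with each library left out. The NK cell comparison went from 552 to 313 with DESeq2, 845 with no filter, and 346 to 601 with each library left out, 346 without asthma replicate 10. The interaction went from 0 to 3 with at least 2 GZMK UMIs, 1 without cells with other lineages' markers, 1 at 2000 to 6000 UMIs, 69 with no filter, and 0 to 8 with each library left out, 8 without control replicate 3. The cause of these moves was not tested. FCER1G was the interaction call at 2000 to 6000 UMIs (log2 -1.34) and without cells with other lineages' markers (-1.26). Its interaction was -0.48 with all libraries and 0.066 without asthma replicate 11, with no call in either case. Genes named for their fold change or p kept their direction, each in the comparison that named it, in the alternatives in which they were tested.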
